A study of Drosophila melanogaster with 4 samples.

Results

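The centromere-proximal 3 Mb of chromosome arm 3R of Drosophila melanogaster was examined for enrichment of HP2 in nuclei of larvae at the third instar. The stretch was defined by position alone. It comprises the enriched regions on 3R whose midpoint lies within 3 Mb of the proximal end, in FlyBase release 5 coordinates, without midpoints between 2.45 and 2.85 Mb. The left-out stretch carries the Antennapedia complex of Hox genes. By this rule 262 of the 12660 regions in the list deposited for the replicate set, here called the combined list, were members, on 2.6 Mb of sequence. Another 1994 combined regions lay on the rest of 3R and 20 in the left-out stretch.

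HP2 is the product of Su(var)2-HP2 and binds heterochromatin protein 1a (HP1a). HP1a recognises methylated lysine 9 of histone H3, the mark of the gene-poor, repeat-rich chromatin that flanks the centromeres of fly chromosomes. The assembled arms run from this pericentric heterochromatin at the proximal end into euchromatin, where HP1a and its partners are known at scattered sites. The most repetitive proximal sequence of 3R is not joined to the assembled arm and is held on a separate scaffold, which is not described here.

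The larvae were wild type, of the Oregon-R strain (Oregon-R-modENCODE), and no treatment is named in the labels. Chromatin was precipitated with the HP2 antibody Ab2-90 in 2 ChIP libraries, numbered as replicates 1 and 2, and each was paired with the input library of the same number. Nuclei came from homogenised larval tissue, so each value is an average over all cell types present. The labels do not say whether the replicates came from separate collections, and the spread between them may be technical.

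The lists give, for each region, a start, an end and a score set by the authors, whose scale is not stated in the labels or the file headers. They hold no read counts, so the depth behind a region is unknown. The list of replicate 1 held 4092 regions and covered 7.17% of the assembled sequence, and that of replicate 2 held 7017 regions and covered 15.4%. Cover, the percentage of bases under regions, was therefore compared between parts of the genome within each replicate. The smallest p that an exact two-sided permutation of signs allows with 2 libraries is 0.5, so no difference reported here can pass that test across replicates, and neighbouring regions are not replicates of each other.

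HP2 regions covered the proximal stretch of 3R thinly and unevenly. In replicate 1 they covered 6.48% of its bases with 79 regions, and in replicate 2 13.6% with 154 regions, a mean of 10.0% ± 5.03 (SD, n = 2). The rest of 3R was covered to 4.48% and 7.80%. The proximal stretch thus had 1.45 times the cover of the rest of its arm in replicate 1 and 1.74 times in replicate 2, a mean of 1.59 ± 0.21-fold (SD, n = 2). Both ratios lay above 1, by more than the spread between them.

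Arms 2L and 3L had a higher cover near the proximal end of the assembled arm. Distance was counted from that end on every arm, and how far each end lies from its centromere is not given. The proximal 3 Mb of 2L was covered to 15.5% and 30.1% in replicates 1 and 2, and the proximal 3 Mb of 3L to 18.1% and 39.8%. Relative to 2L, the cover of proximal 3R was 0.419-fold in replicate 1 and 0.451-fold in replicate 2 (mean 0.435 ± 0.023, SD, n = 2). Relative to 3L it was 0.358-fold and 0.342-fold (mean 0.350 ± 0.011, SD, n = 2). The replicates differed little in these ratios, although they differed about 2-fold in cover. The proximal 3 Mb of the X was covered to 3.02% and 11.2%, which put 3R at 2.15-fold and 1.21-fold (mean 1.68 ± 0.67, SD, n = 2), a difference of about the size of the spread.

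The arms also differed in the shape of the profile. In the plot of cover by distance from the proximal end, 2L ran at 26.6% to 47.5% in replicate 1 over its first 1 Mb and stood at 0.599% in the next 250 kb. On 3L the cover was 46.5% between 1250 and 1500 kb and 5.12% between 1500 and 1750 kb. On 3R no 250 kb step of replicate 1 was covered above 14.4%, and that step lay between 1250 and 1500 kb from the proximal end. In replicate 2 the highest step of 3R was the first, at 29.9%, and the step between 1250 and 1500 kb followed at 22.4%. No continuous block with a single far border was thus seen on 3R in either replicate. The X had none either, and its highest step, at 9.40% and 40.0%, was the one farthest from the end.

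**Figure D1:**
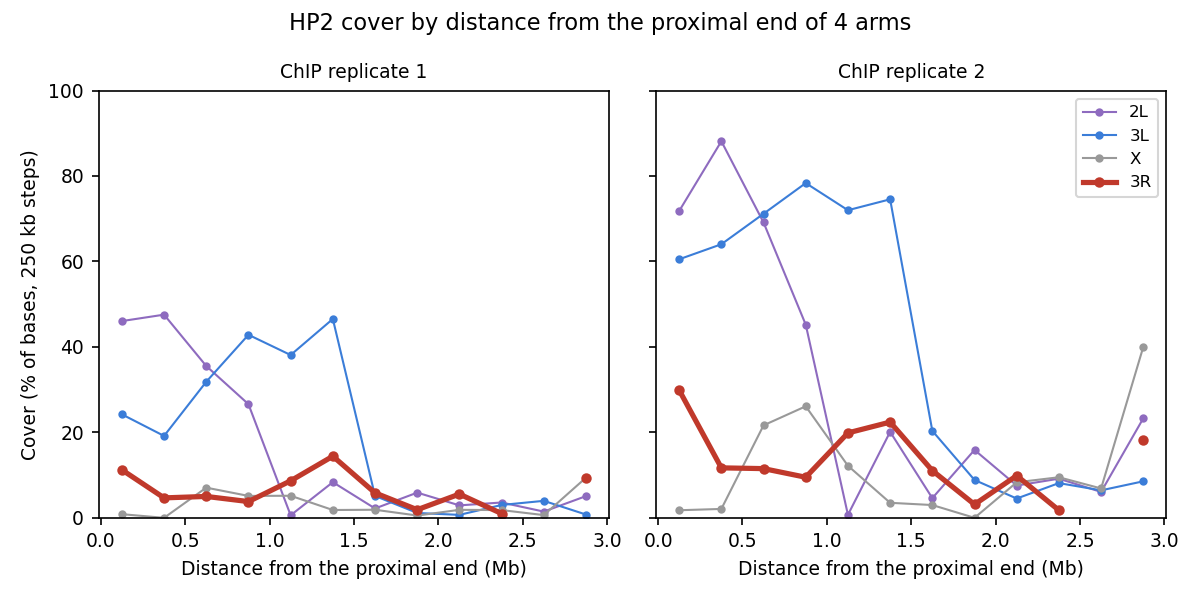
Percentage of bases under HP2 regions in 250 kb steps from the proximal end (x axis, in Mb) of arms 2L, 3L, X and 3R, with 1 panel for each ChIP replicate; the 3R point near 2.9 Mb is set apart because the sequence before it was left out. 2L and 3L start at high cover and drop after 1 and 1.5 Mb, while 3R (thick line) stays at or below 14.4% in replicate 1 and 29.9% in replicate 2.

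Within the stretch, HP2 was concentrated in a proximal part, a detached part about 1 Mb from the end, and a short part beyond the Hox complex. The first 500 kb were covered to 7.95% in replicate 1 and 20.8% in replicate 2 and held 60 regions. The next 500 kb were covered to 4.41% and 10.5% and held 46. From 1.0 to 1.5 Mb the cover was 11.5% and 21.1%, with 83 regions, the highest count and the highest cover in either replicate among the 6 steps of 500 kb. The step from 1.5 to 2.0 Mb was covered to 3.87% and 7.10% with 26 regions, and the 450 kb kept of the following step to 3.53% and 6.27% with 28. The last 150 kb, from 2.85 to 3.0 Mb, were covered to 9.21% and 18.3% with 19 regions.

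The detached part and the first 500 kb were not separated by cover. The ratio of cover from 1.0 to 1.5 Mb over that of the first 500 kb was 1.45 in replicate 1 and 1.02 in replicate 2 (mean 1.23 ± 0.31, SD, n = 2), so their order is not fixed beyond the spread. In replicate 2 the first 300 kb alone were covered more densely, to 29.2%. Relative to the rest of 3R the detached part had 2.57 and 2.71 times the cover (mean 2.64 ± 0.10, SD, n = 2). This pair of comparisons was chosen after the values were seen. The first 500 kb had 1.30 and 1.75 times the cover of the remainder of the stretch (mean 1.52 ± 0.32, SD, n = 2).

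At a finer scale, the 100 kb window from 1.4 to 1.5 Mb had the highest mean cover of the 279 windows of 3R. Its cover was 20.6% in replicate 1 and 34.0% in replicate 2, and it ranked second on the arm in both, and held 24 combined regions. The first 100 kb followed within the stretch, with 12.7% and 39.0%, rank 16 in replicate 1 and rank 1 in replicate 2. The window from 0.2 to 0.3 Mb was covered to 16.3% and 32.6%, which put it at ranks 7 and 3. These 3 windows were among the 10 with the highest mean cover on the arm.

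Within the stretch, the window from 2.9 to 3.0 Mb came next, at 11.99% and 26.6% (ranks 21 and 9). The windows from 1.1 to 1.2 Mb, at 12.1% and 18.7%, and from 1.0 to 1.1 Mb, at 5.10% and 22.1%, completed the 6 most covered. The last of these rested mainly on replicate 2, where it ranked 16, against rank 106 in replicate 1. Together the 6 windows made up 23.1% of the stretch and held 105 of the 262 members (40.1%), 46.7% of the covered bases of replicate 1 and 49.0% of those of replicate 2. They were chosen for their cover, so these shares are a description.

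Between these parts lay sequence with few or no regions. The longest stretch without a combined region, 1689101 to 1828141 (139 kb), also held no complete region of either replicate list. The 90.2 kb from 1835405 to 1925639 followed, with 1 replicate 1 region inside. The next were 368837 to 433849 (65.0 kb) and 1927449 to 1981871 (54.4 kb), both without a complete replicate region. The windows from 1.7 to 1.8 Mb and from 2.3 to 2.4 Mb, and the 50 kb kept of the window at 2.4 Mb, had a cover of 0 in both replicates, and the window from 1.9 to 2.0 Mb was covered to 0% and 3.36%. How much of this sequence could be mapped is unknown, so a cover of 0 cannot be read as an absence of HP2. Of the 27 windows, 19 lay above the arm's median window in replicate 1 (3.50%) and 19 in replicate 2 (6.49%).

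**Figure D2:**
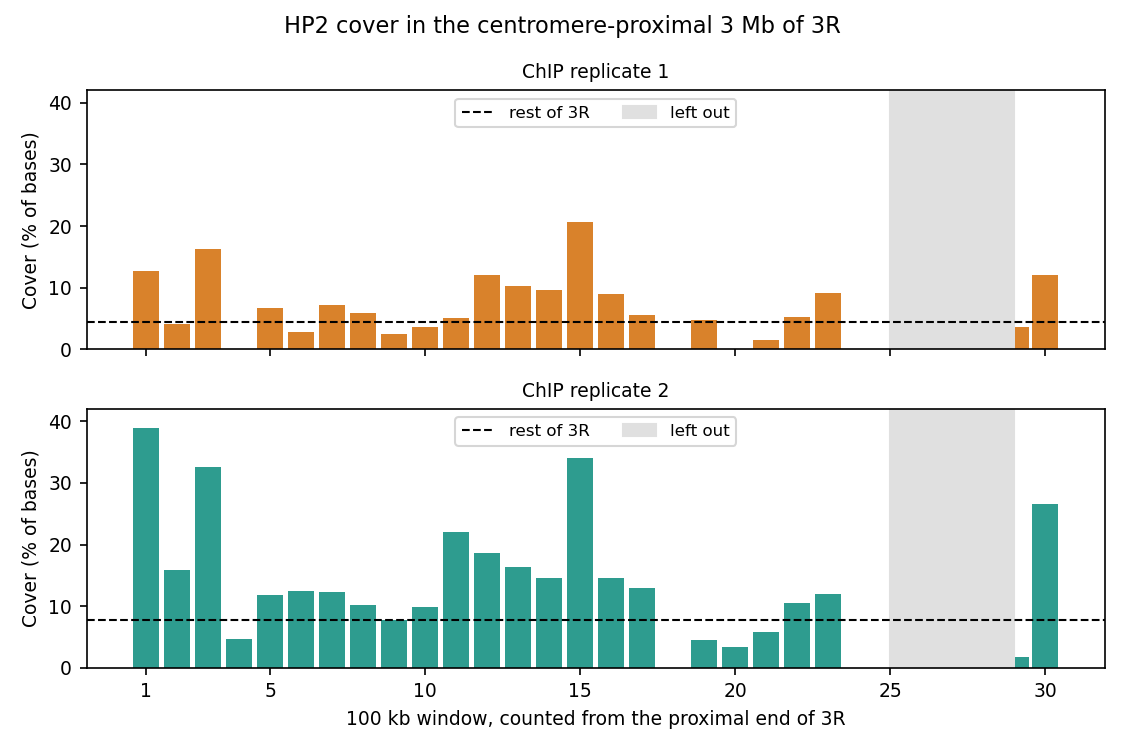
Percentage of bases under HP2 regions in each 100 kb window of proximal 3R, counted from the proximal end, for ChIP replicate 1 (top) and replicate 2 (bottom); the dashed line is the cover of the rest of 3R, 4.48% and 7.80%, the grey band the left-out stretch, and the 2 narrow positions beside it are windows of which 50 kb was kept. Windows 1, 3, 15 and 30 are among those above the line in both replicates, and window 18 is among those empty in both.

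The cover of the left-out stretch around the Antennapedia complex was 3.63% in replicate 1 and 5.27% in replicate 2. These values lay below those of the whole kept stretch, 6.48% and 13.6%, but not below those of all adjoining sequence. Between 2.3 and 2.45 Mb the cover was 0% in both replicates, and between 2.85 and 2.9 Mb it was 3.64% and 1.80%. Taken more widely, 2.0 to 2.45 Mb had 3.53% and 6.27%, while 2.85 to 3.0 Mb had 9.21% and 18.3%. Of the 20 combined regions in the left-out stretch, 7 overlapped regions of both replicates.

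Of the 262 proximal 3R regions, 60 overlapped a region in both replicates, or 22.9% (exact Clopper-Pearson 95% interval 18.0 to 28.5%). Among all combined regions the share was 22.3%, so the members lay at the background. A region of replicate 1 was met by 71 members (27.1%, background 26.2%) and a region of replicate 2 by 144 (55.0%, background 52.2%). Replicate 2 alone was met by 84 members (32.1%, background 29.9%) and replicate 1 alone by 11 (4.20%, background 3.82%). The remaining 107 members overlapped neither list, or 40.8% (34.8 to 47.1%), against 43.9% of all combined regions and 52.9% (50.7 to 55.1%) on the rest of 3R. These intervals cover counting error only, and overlap is met more often by chance where cover is higher, as it was here relative to the rest of 3R.

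By position, the members found in both replicates numbered 12 of 60 in the first 500 kb, 9 of 46 in the next and 22 of 83 from 1.0 to 1.5 Mb. In the 3 further steps they were 9 of 26, 5 of 28 and 3 of 19. The members found in neither list were 19, 20, 36, 9, 13 and 10 of these steps. Replicate 2 contributed most to the first step, where 27 of 60 members overlapped replicate 2 alone and its cover was 2.61 times that of replicate 1. From 1.0 to 1.5 Mb that ratio was 1.83, and on the rest of 3R it was 1.74.

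**Figure D3:**
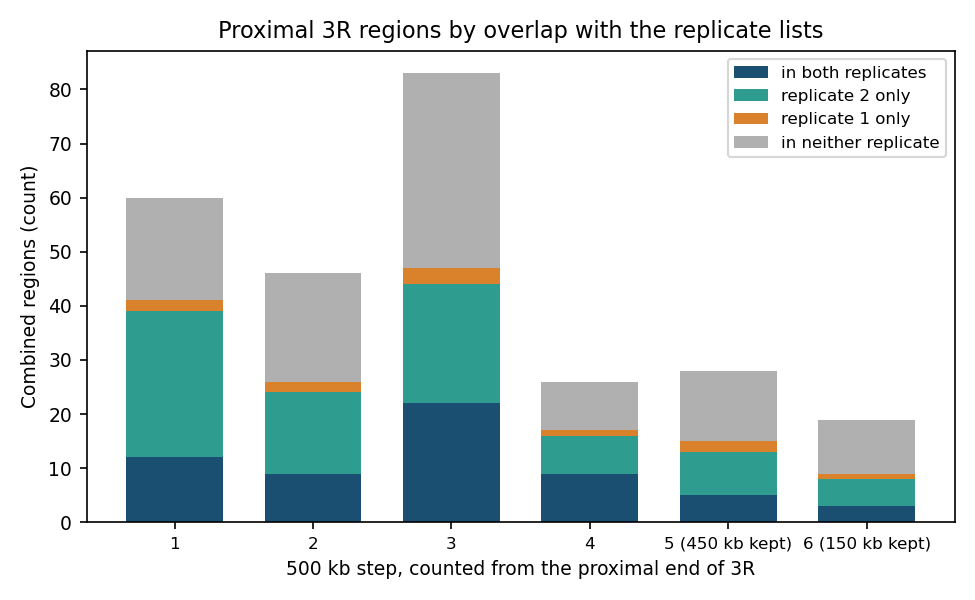
Number of combined HP2 regions in each 500 kb step from the proximal end of 3R, split by overlap with the 2 replicate lists; steps 5 and 6 hold 450 and 150 kb because of the left-out stretch. The third step is the tallest, with 83 regions, 22 of them in both replicates.

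Read in the other direction, 65 of the 79 replicate 1 regions in the stretch were overlapped by replicate 2 (82.3%, 95% interval 72.1 to 90.0%), and 61 of the 154 replicate 2 regions by replicate 1 (39.6%, 31.8 to 47.8%). On the rest of 3R the shares were 77.9% (74.2 to 81.3%) and 48.3% (45.0 to 51.7%). In bases, 138 kb lay under regions of both replicates, which was 81.9% of the sequence covered in replicate 1 and 39.1% of that in replicate 2. The combined list contained 77 of the 79 and 149 of the 154 replicate regions. On the rest of 3R it contained 543 of 552 and 860 of 867, so nearly all were contained in both parts.

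Most members were narrow. The median width in the combined list was 1.67 kb, with quartiles of 1.29 and 2.47 kb, and on the rest of 3R it was 1.58 kb. In replicate 1 the medians were 1.92 kb in the proximal stretch and 1.91 kb on the rest of 3R, and in replicate 2 they were 1.87 and 2.01 kb. The order of the 2 parts was therefore not the same in all lists, and no difference in width was established. Wide regions were rarer than in the proximal 3 Mb of 2L and 3L. A width of 10 kb was reached by 2 of 262 members, or 0.763% (95% interval 0.0926 to 2.73%), against 25 of 246, or 10.2% (6.69 to 14.6%), in the proximal 3 Mb of 2L and 34 of 303, or 11.2% (7.90 to 15.3%), in that of 3L. Among all combined regions 283 of 12660 reached this width, or 2.24% (1.98 to 2.51%), which lies within the members' interval. The widest member measured 10.8 kb, and the widest regions of proximal 2L and 3L 38.3 and 36.3 kb. The rest of 3R had 1 region of 10 kb or more among 1994, and proximal X had 0 of 234, which by a limit of 3 counts allows a share of up to 1.28%.

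Overlap with the replicate lists went with width. Of the 110 members of up to 1.5 kb, 0 were found in both replicates, which by a limit of 3 counts allows a share of up to 2.73%, and 87 in neither. Of the 44 members wider than 3 kb, 34 were found in both (77.3%, 95% interval 62.2 to 88.5%) and 0 in neither, which by the same limit allows up to 6.82%. On the rest of 3R the corresponding shares in both were 0.11% and 73.4%. Those in neither were 87.1% and 3.70% there, against 79.1% and 0% of the members, so the relation was not particular to the stretch. The narrowest region of either replicate list measured 1301 bp and the narrowest combined region 1001 bp. Narrower than any replicate region in the series were 67 members (25.6%), against 28.7% of all combined regions and 33.7% on the rest of 3R.

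Scores in the proximal stretch lay slightly below those of the rest of the arm in all 3 lists. The median combined score was 0.340 for the members and 0.355 for the rest of 3R, and within the replicate lists it was 0.501 against 0.510 in replicate 1 and 0.500 against 0.528 in replicate 2. Among the higher-scoring 50% of the combined list the members' median was instead 0.0256 above that of the rest of 3R, so the direction was not stable. Of the members 77, or 29.4%, scored above the median of the combined list, 0.392. Members found in both replicates had a median score of 0.510 and a median width of 3.16 kb, against 0.330 and 1.92 kb in replicate 2 alone, 0.300 and 1.52 kb in replicate 1 alone, and 0.326 and 1.27 kb in neither. On the rest of 3R the regions found in both had a median score of 0.513.

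**Figure D4:**
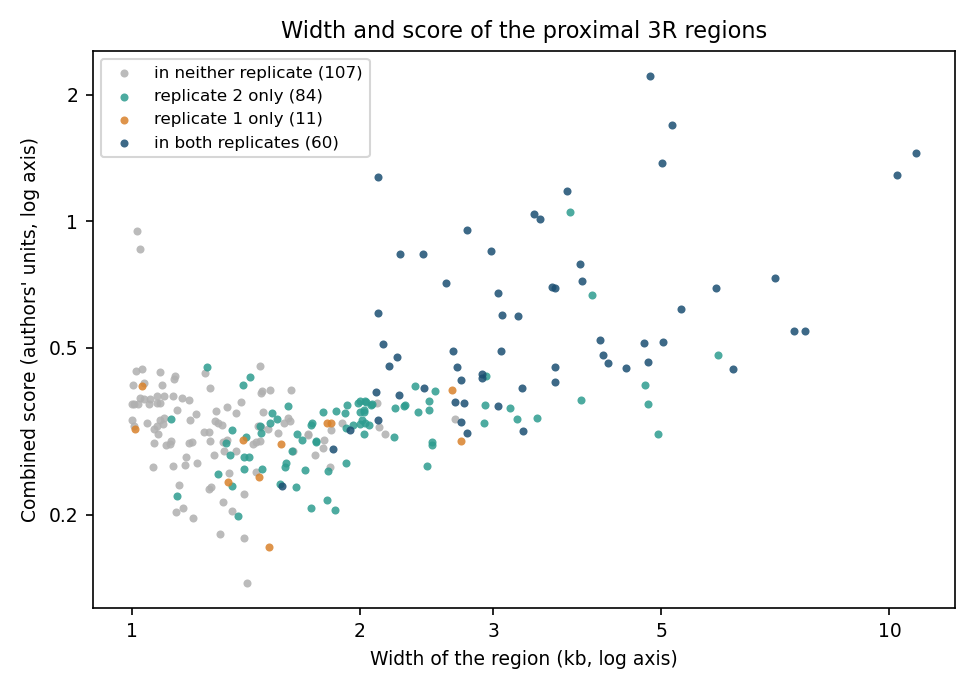
Width in kb (x axis, log scale) and score in the authors' units (y axis, log scale) of the 262 combined regions of proximal 3R, coloured by overlap with the replicate lists. Regions found in both replicates lie to the right, with a median width of 3.16 kb. They include 9 of the 10 regions scoring above 1, a share not counted for other parts of the genome.

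A small set of strong regions stood above this body. A combined score above 1 was reached by 10 members (3.82%), against 2.26% on the rest of 3R and 9.45% of all combined regions. Of the 10, 9 were found in both replicates, a share that was not counted for regions above 1 elsewhere. Over the whole combined list the median score was 0.645 in both and 0.362 in neither, so higher scores in both were not particular to the stretch. The highest-scoring member was 3R 56380 to 61206, 4.83 kb wide, close to the proximal end. It scored 2.22 in the combined list, rank 116 of 12660, with 1.83 in replicate 1 and 2.72 in replicate 2. The second was 3R 1041596 to 1046758 (5.16 kb) in the detached part, with scores of 1.69 (combined), 1.69 (replicate 1) and 2.14 (replicate 2). The next member along the arm was another of the set, 3R 1047380 to 1050772 (3.39 kb), with 1.04, 0.807 and 1.44.

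The third by score was also the widest member, 3R 2904250 to 2915076 (10.8 kb), beyond the Hox complex, with 1.45, 1.42 and 2.31. It was composite, in that each replicate list held 2 regions under it. The only other member of 10 kb or more, 3R 221854 to 232100 (10.2 kb), scored 1.29, 1.25 and 1.71 and held 2 regions of replicate 1 and 1 of replicate 2. In the second 500 kb the leading members were 3R 635516 to 640522 (5.01 kb; 1.37, 1.21 and 1.99) and 3R 787482 to 789598 (2.12 kb; 1.27, 1.21 and 1.33). The latter was the narrowest of the 12 highest-scoring members found in both replicates.

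In the step from 2.0 Mb to the left-out part, 3R 2230214 to 2233970 (3.76 kb) led with 1.18, 0.988 and 1.44. The remaining 4 of the 12 were 3R 1392782 to 1396236 at a combined score of 1.01, the first region of the assembled arm at 1 to 2770 with 0.955, 3R 600270 to 603250 with 0.848 and 3R 1192828 to 1195090 with 0.836. The 12 were spread over all steps except that from 1.5 to 2.0 Mb, where the 2 leading members, 3R 1832984 to 1835404 and 3R 1618338 to 1621920, scored 0.835 and 0.697. The first of these and 1 neighbour stood between the 2 longest stretches without regions. In the last step 3R 2975444 to 2979370 was second, with 0.719.

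The other wide members had modest scores. 3R 17538 to 25266 (7.73 kb) scored 0.546 and 3R 1288778 to 1296256 (7.48 kb) 0.547 in the combined list, and each held 2 regions of replicate 1 and 1 of replicate 2. 3R 157280 to 164342 (7.06 kb) scored 0.730 and held 2 of each. 3R 464116 to 470332 (6.22 kb) scored 0.445. All 6 of the widest members were found in both replicates.

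High scores in members not found in both replicates were few. 3R 2000830 to 2004614 (3.79 kb) scored 1.05 in the combined list and 1.49 in replicate 2, and overlapped no replicate 1 region. It was the only member above a score of 1 that was not in both lists. Among members found in neither list the highest were 3R 716452 to 717468 (0.948) and 3R 2006042 to 2007066 (0.861), of 1.02 and 1.03 kb, whose scores were shared exactly with 5 and 2 other combined regions. They were followed by 3R 1486450 to 1487926 (0.451) and 3R 2399904 to 2400936 (0.445). Exactly shared scores occurred in 98 of the 262 members (37.4%) and in 37.0% of all combined regions.

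Members lay closer together than the regions on the rest of 3R, and they were also denser, at 101 against 80.1 per Mb. Whether the spacing or the runs differed beyond this density was not tested. The median space between neighbours was 2.65 kb, against 3.41 kb on the rest of 3R, 2.79 kb in proximal 2L, 1.61 kb in proximal 3L and 2.37 kb in proximal X. Of the 260 spaces 174 (66.9%) were at most 5 kb, and on the rest of 3R 58.9%. Runs of at least 10 members with spaces of at most 5 kb, a rule set after the values were seen, numbered 5 and held 70 members (26.7%). By the same rule 15.4% of the regions on the rest of 3R lay in runs, as did 30.9% in proximal 2L, 49.5% in proximal 3L and 29.5% in proximal X. At a limit of 2.5 kb the stretch held 0 runs, and at 10 kb 55.0% of the members lay in runs, against 2.76% and 36.2% on the rest of 3R, so the order of these 2 parts turned with the limit.

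The longest run extended from 1424496 to 1512702 (88.2 kb) and held 23 members. Its cover was 17.0% in replicate 1 and 33.6% in replicate 2, and 7 of its members were found in both lists, 8 in replicate 2 alone, 1 in replicate 1 alone and 7 in neither. None of its members scored above 0.522, although their median score, 0.364, was above the 0.340 of all members. The run from 1038158 to 1093970 held 16 members, among them the pair led by 3R 1041596, and was covered to 9.14% and 39.6%. Only 2 of its members were found in both lists, and replicate 1 had 2 regions there against 11 in replicate 2.

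The run nearest the proximal end, 39064 to 81382, was likewise covered mainly in replicate 2. It contained the top-scoring member and 10 others, and was covered to 9.96% by 1 region in replicate 1 and to 47.4% by 8 regions in replicate 2. The run from 2890114 to 2934804 held 10 members around the widest one and was covered to 22.4% and 41.8%, by 3 and 6 replicate regions. The run from 1366700 to 1396236 also held 10, with 13.2% and 20.6% and 7 members found in neither list.

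The borders of the stretch fell between ordinary and strong regions. The members on either side of the left-out part were 3R 2399904 to 2400936 (combined score 0.445) and 3R 2864194 to 2865382 (0.296), and the first regions within it were 3R 2461768 to 2462800 (0.363) and 3R 2824224 to 2825286 (0.382). The last member before 3 Mb was 3R 2987776 to 2989692, with 0.321. The first region beyond was 3R 3010192 to 3013900 (3.71 kb), found in both replicates, with a combined score of 1.89 and replicate scores of 1.51 and 2.40. It would have been the second-highest member had the limit been placed a little further out.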

How the data were processed

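HP2 ChIP was sequenced in 2 libraries with 2 inputs, and 3 lists of regions were used. Reads were aligned with Bowtie 0.12.7, per the submitters' processing notes, and each ChIP library was called against the input of the same number, per the labels. The score of each region is the authors' deposited value. No label or header states its scale, the region caller or the threshold, so scores were compared only within a list. Per the file headers, positions refer to FlyBase release 5; they are given 1-based. A start of 0 in 1 member was set to 1. The gene table used here is on Release 6, coordinates were not converted, and genes under the regions are therefore not named.

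Members were taken by midpoint. Overlap meant at least 1 bp, and cover was counted over bases with Python 3.11.15, pandas 2.3.3 and SciPy 1.17.1. The overlap count was checked on copies of randomly drawn members, left in place or moved off the arm. Partial overlaps were not tried. The cover count of the members was checked against a count by position. Shares have exact binomial intervals, shares of 0 a limit of 3 counts, and means the SD over 2 libraries. The depth is unknown. Named were the 12 highest-scoring members found in both replicates, the 6 widest, the 4 highest in neither, the 2 highest in each 500 kb step, those at the borders, the 6 most and 4 least covered windows and the 4 longest stretches without regions. The members, lists and rules were chosen with earlier results of these data known. Alternatives used the higher-scoring 50% of every list, regions merged within 1 kb, other overlap rules, lists of equal length, other windows and either replicate alone.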

Additional observations from a re-analysis of the deposited data

How the results depend on the processing

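Of 96 alternative values, 71 stayed close to the reported value, 23 moved and 2 reversed, and the cause was not tested. Close meant within the SD of the replicates, the interval of a share, or 1.5 times a count. For cover and its ratios, either replicate alone always lies within the SD of the 2. Those values could not count as moved, so the 71 includes outcomes fixed in advance and is no measure of stability across replicates. The ratio of proximal 3R to the rest of the arm stayed above 1 in each alternative, from 1.35 with the combined list to 1.74 in replicate 2 alone. With the higher-scoring 50% of each list, 77 members were left, cover was 4.30%, the ratios to 2L and 3L were 0.228 and 0.172, the width ratio to the rest of 3R was 1.20 and the score difference reversed from -0.0156 to 0.0256. In the replicate 2 list the width ratio reversed from 1.05 to 0.934. The ratios to 2L and 3L were 0.404 and 0.325 with the Hox stretch included, 0.349 and 0.265 for 2 Mb, 0.346 and 0.277 with lists of equal length and 0.614 and 0.478 with the combined list, whose cover was 21.7%. The share found in both replicates was 17.6% where 50% of the region had to be covered, 17.2% with reciprocal overlap and 16.0% with lists of equal length, where 68.7% were found in neither. Against the other arms' distal parts the score difference was -0.0357. The first 1 Mb had 1.10 times the cover of the remainder. Membership by any overlap gave the same 262 regions.

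Without replicate 1 or 2, cover was 13.6% or 6.48%, and the ratio to the rest of 3R 1.74 or 1.45. The ratio to the X ran from 1.21 without replicate 1 to 2.15 without replicate 2, over 1.5 times apart. No paired analysis was possible because the inputs have no list of regions and the ChIP libraries form a single group. The unknown depth limits every statement on regions that are missing from a list.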
